A study of Rattus norvegicus with 16 samples.

Results

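The proteasome genes on the array were taken as every transcript probe whose gene name begins with Psma, Psmb, Psmc, Psmd, Psme, Psmf or Psmg followed by a digit. This gave 56 of 41012 probes, for 47 genes. The rule used names only and no measured value, but the gene set was chosen with earlier results of these data known. Of these, 55 probes (46 genes) were bright enough to be among the 27294 probes tested. The remaining probe was that of Psmb11, the core subunit of the thymus, which was well above background in 0 of 16 samples. The rule also takes in Psmc3ip, a recombination factor named after a proteasome ATPase that is not a subunit, and it is given separately where it matters. For 8 genes there was more than 1 probe.

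The samples were 16 hippocampal neurons in primary culture, in 4 groups of 4, prepared from embryos of either sex of Sprague-Dawley rats at embryonic day 18 to 19. The knockdown group received a lentivirus made with a pTRIP vector that expresses a short hairpin RNA (shRNA) against the coding region of PRR7, a synaptic adaptor protein, and the nontargeting group a control lentivirus whose shRNA has no target. The overexpression group received full-length PRR7 from the lentiviral vector FUGW, and the not transduced group received no virus. The series design calls the samples of a group biological replicates, but how many separate preparations of embryos they came from was not stated in the sources used here, so p values measure the spread between these samples. Each array carried 2 samples of the same group in 2 dyes, replicates 1 and 2 or replicates 3 and 4, and a shRNA of a single target sequence was used for the knockdown. The knockdown and nontargeting arrays shared a slide, as did the overexpression and not transduced arrays. Between these slides the group and the slide cannot be told apart. One further label of the samples names another source, the dentate gyrus of ovariectomised adult females. It goes against the growth protocol, the source names and the tissue label and was not used. PRR7 itself was not analysed here, so the labels were not checked on it.

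The proteasome cuts proteins that carry ubiquitin chains into short peptides. Its barrel, the 20S core, is built of outer alpha rings and inner beta rings, and the cutting sites lie in 3 beta subunits (Psmb5, Psmb6 and Psmb7), which inducible counterparts (Psmb8, Psmb9 and Psmb10) replace in immune or inflamed cells. The 19S cap recognises the ubiquitin chain, removes it, and unfolds the substrate with a ring of ATPases. In neurons the proteasome turns over synaptic and nuclear proteins. The series concerns PRR7 and the ubiquitination and degradation of the transcription factor c-Jun, for which these transcripts encode the degrading machine.

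The array reads each transcript with a probe of 60 bases. As examples, 7 probes of 5 genes described below are given as deposited, 5′ to 3′, with positions from the array annotation on rn4. Psmb5 and Psmb8 are the constitutive and inducible subunits of the same cutting activity, and Psmd14 is the deubiquitinase of the cap. Psmd7 was higher in knockdown than in nontargeting cultures, while 7 of the 23 tested probes of the 19S base and lid were lower and 13 did not pass. It is shown with the second and the third of its 3 probes, and the probes of Psmc4 differed from each other. On rn4 the Psmb5 probe lies at chr15:32690134-32690193, the Psmb8 probe at chr20:4787980-4788039, and the second Psmd7 probe at chr19:37452992-37453051. The other 4 align over more than their own length, at chr3:43696292-43699023 for Psmd14, chr19:37456176-37456793 for the third Psmd7 probe, and chr1:83151315-83151537 and chr1:83151910-83152110 for Psmc4. All 7 are placed on the minus strand, and no base is marked.
Psmb5: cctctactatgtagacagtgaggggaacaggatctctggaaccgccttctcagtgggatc
Psmb8: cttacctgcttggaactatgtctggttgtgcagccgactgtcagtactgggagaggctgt
Psmd14: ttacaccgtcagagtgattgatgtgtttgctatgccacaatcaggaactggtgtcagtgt
Psmd7, the second: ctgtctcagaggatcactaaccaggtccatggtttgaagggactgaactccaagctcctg
Psmd7, the third: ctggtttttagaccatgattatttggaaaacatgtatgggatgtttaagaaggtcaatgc
Psmc4, first: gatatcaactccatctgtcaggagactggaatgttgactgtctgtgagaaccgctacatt
Psmc4, second: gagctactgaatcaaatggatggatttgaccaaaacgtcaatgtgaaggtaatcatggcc

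All values below are single-channel log2 intensities after normalization, called log2 levels, and differences are of log2 levels, so that 1 unit is a doubling. Between 49.2% and 69.6% of transcript probes per sample were well above background. Of the 56 proteasome probes, 54 were well above background in all 16 samples and Psmb8 in 14. The number of arrays, 8, limits the precision. Spots flagged as outliers by the scanner software have no value, and 33 of the 56 probes had a value in all 16 samples. Fits used the remaining values.

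**Figure D1:**
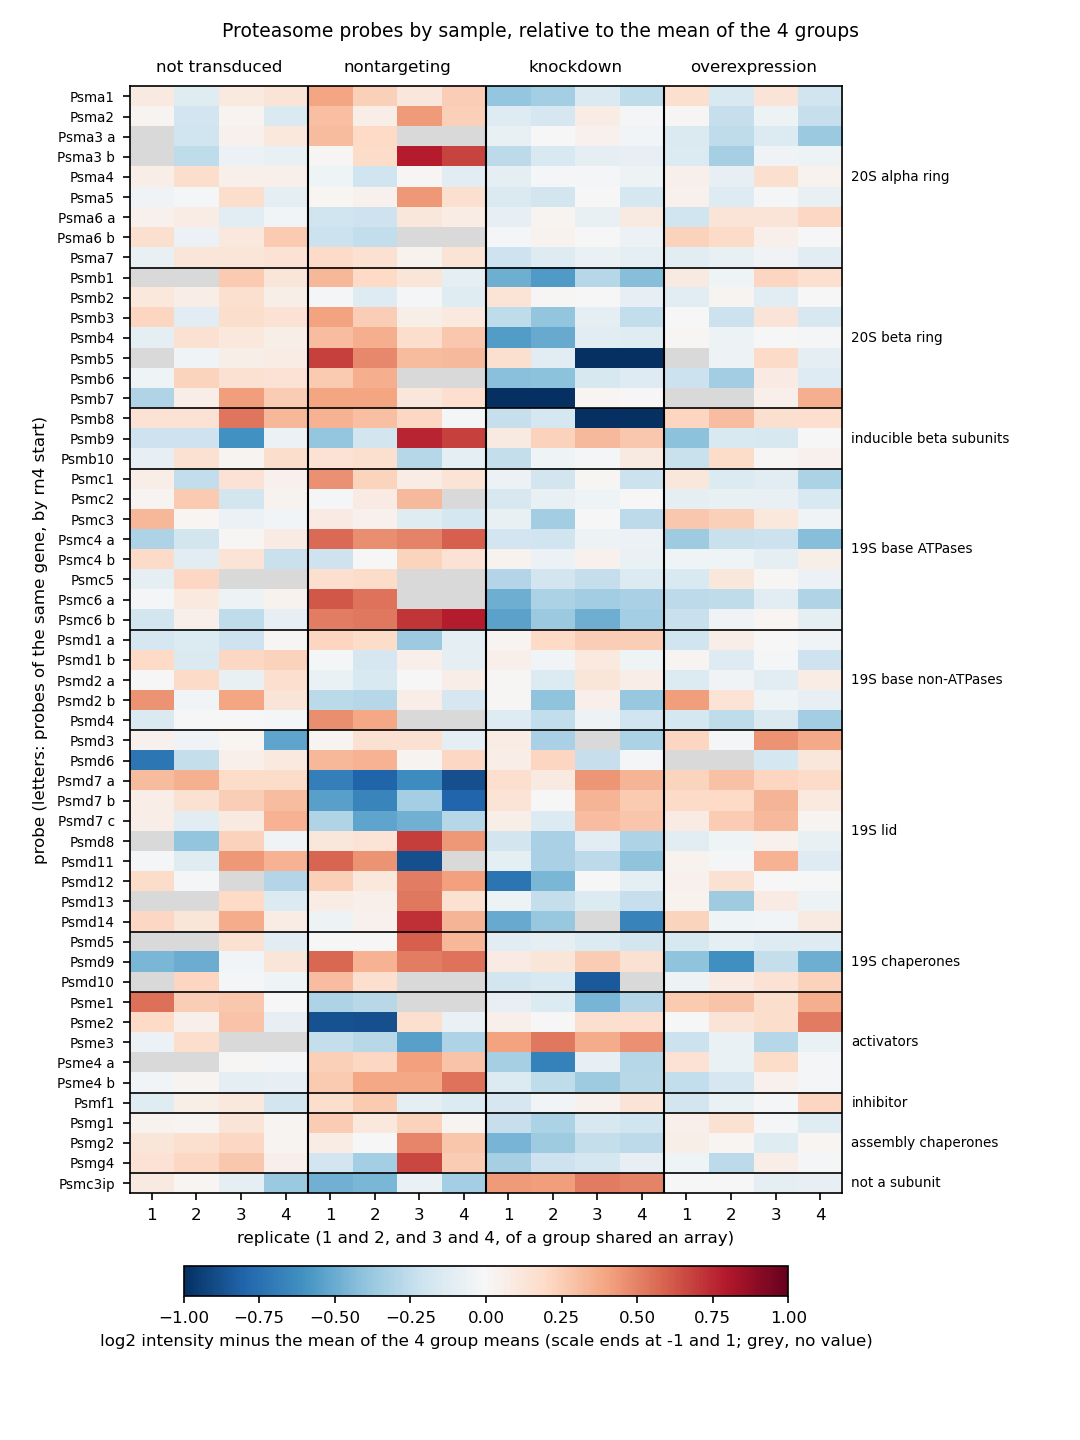
Heat map of the 55 tested proteasome probes (vertical axis, by role) in the 16 samples (horizontal axis, by group and replicate), as the log2 level minus the mean of the 4 group means. Blue is lower and red higher. Psmd7 is blue in the nontargeting columns, and Psme3 and Psmc3ip are red in the knockdown columns.

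Knockdown against nontargeting asks what differs when PRR7 is targeted in neurons that carry an shRNA. More proteasome probes were lower than higher in the knockdown cultures. Of 55 probes tested, 21 were lower (38.2%, in 19 genes) and 5 higher at a limma adjusted p under 0.05, where 10.8% of all tested probes were lower and 10.3% higher (21.1% in all). The median difference over the 54 probes of proteasome genes proper, without Psmc3ip, was -0.31, and that over all 27294 probes was -0.02. In 29 probes every knockdown value lay below every nontargeting value, a pattern 20.2% of all probes showed. The mean over the 31 of these probes with a value in every sample was 12.62 to 12.74 in the 4 knockdown samples and 12.74 to 12.89 in the 4 nontargeting samples. In the not transduced samples it was 12.76 to 12.83 and in overexpression 12.72 to 12.78.

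The split depended on how arrays were scaled. Among probes with a mean of at least 12, a limit chosen after the data were seen, 43.2% of 37 proteasome probes were lower and 5.41% higher, against 15.8% and 13.9% of all 3784 such probes, with medians of -0.32 and -0.06. Without normalization between arrays, the 54 proteasome probes gave 27 lower and 0 higher (median -0.88) while the median of all probes moved to -0.14 and that of bright probes to -0.66. With the deposited matrix, in which the median of each sample is 0, there were 5 lower and 5 higher (median -0.19) while the median of all probes was 0.16. The share of calls that were lower was thus 84% in the main fit, 100% and 50%, and the median of the proteasome probes stayed below that of all probes under each scaling. The count also rests on single arrays. It was 10 without the knockdown array of replicates 1 and 2, 15 without that of replicates 3 and 4, 16 without either nontargeting array, and 11 with each array as 1 value.

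**Figure D2:**
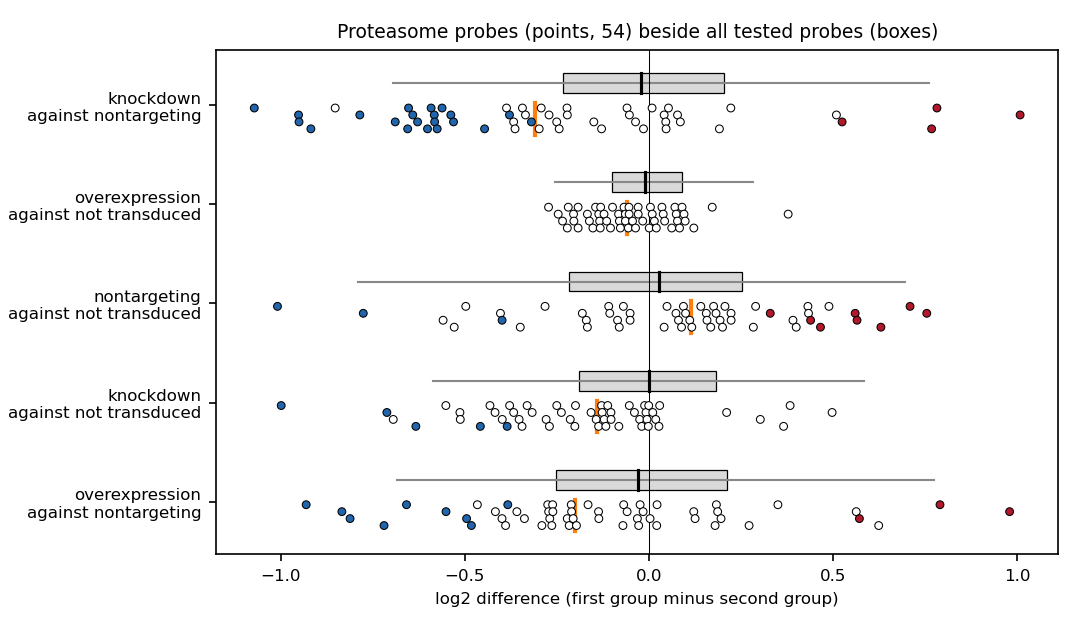
Log2 differences (horizontal axis) in the 5 comparisons (vertical axis) for the 54 proteasome probes without Psmc3ip (points; blue lower and red higher at adjusted p under 0.05, white not called; orange bar, median) and for all tested probes (box, middle 50%; line, 5th to 95th percentile; black bar, median). In knockdown against nontargeting the points centre on -0.31 and the box on -0.02, and in overexpression against not transduced all points are white.

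In the 20S core, 8 of 16 probes were lower and 0 higher in knockdown than in nontargeting cultures (median -0.38). The beta ring showed it most, with 5 of 7 probes lower and a median of -0.59, and in the alpha ring 3 of 9 were lower with a median of -0.27. Of the 5 lower calls in the beta ring, that of Psmb1 alone was kept without each array. Psmb5, which carries the chymotrypsin-like site, read 14.63, 14.37, 13.45 and 13.44 in knockdown replicates 1 to 4 and 15.16, 14.95, 14.79 and 14.80 in nontargeting. It read 14.44, 14.53 and 14.55 in not transduced and 14.42, 14.67 and 14.38 in overexpression cultures (replicate 1 without a value in each). The nontargeting values lay above all others. The knockdown array of replicates 1 and 2 was near the not transduced values, and that of replicates 3 and 4 lay below all other values. Psmb5 was 1.93-fold lower in knockdown than in nontargeting (log2 difference -0.95 ± 0.24 SE, adjusted p = 0.0133). Without the knockdown array of replicates 3 and 4 the difference was -0.42 (adjusted p = 0.128), and without that of replicates 1 and 2 it was -1.48. Without the nontargeting array of replicates 1 and 2 it was -0.82 (adjusted p = 0.0927).

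Psmb6, with the caspase-like site, read 12.06, 12.07, 12.32 and 12.35 in knockdown and 12.74 and 12.84 in nontargeting, where replicates 3 and 4 had no value. It was 12.60 ± 0.11 in not transduced and 12.33 ± 0.18 in overexpression cultures (SD, n = 4). The difference from nontargeting, -0.59 ± 0.18 SE, passed (adjusted p = 0.0320), and it did not pass without nontargeting replicate 2, without knockdown replicate 1 or without knockdown replicate 2. Psmb7, with the trypsin-like site, read 12.18, 11.997, 13.28 and 13.27 in knockdown, 13.66, 13.66, 13.38 and 13.43 in nontargeting, and 12.97, 13.33, 13.69 and 13.52 in not transduced cultures. The knockdown array of replicates 1 and 2 was low and the other was near the not transduced values, and the difference of -0.85 ± 0.30 SE did not pass (adjusted p = 0.0606, 95% confidence interval -1.499 to -0.21). The array that was low for Psmb7 is not the array that was low for Psmb5.

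Of the structural beta subunits, Psmb1 fell by 0.58 (adjusted p = 0.00204), from 13.25, 13.12, 13.04 and 12.83 in nontargeting to 12.43, 12.35, 12.63 and 12.49 in knockdown. It kept its call without each array. Psmb4 fell by 0.60, which did not pass without the knockdown array of replicates 1 and 2, and Psmb3 fell by 0.45. Psmb2 differed by 0.09 and did not pass. In the alpha ring, which gates the barrel, Psma1 fell by 0.53. The second of 2 Psma3 probes was lower in knockdown than in nontargeting by 0.56, with means of 11.89 in knockdown, 12.45 in nontargeting and 11.91 in not transduced cultures. Psma2 was lower by 0.32, with means of 13.72, 14.04 and 13.71 in the same order, so on both probes nontargeting stood high. The first Psma3 probe differed by -0.27 and did not pass, nor did Psma4, Psma5, Psma6 or Psma7.

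The inducible subunits did not move together. Psmb8, the interferon-induced counterpart of Psmb5, read 7.33, 7.38, 6.53 and 6.16 in knockdown, 7.90, 7.86, 7.76 and 7.54 in nontargeting, 7.70, 7.70, 8.09 and 7.89 in not transduced and 7.77, 7.86, 7.72 and 7.72 in overexpression cultures. The knockdown samples were the lowest 4 of the 16, and only 2 of them were well above background. Psmb8 was lower in knockdown than in nontargeting by 0.92 ± 0.23 SE (adjusted p = 0.0112), and by 0.41 without the knockdown array of replicates 3 and 4 (adjusted p = 0.133). With the deposited matrix the adjusted p was 0.169. Psmb9, the counterpart of Psmb6, read 9.30, 9.45, 9.54 and 9.49 in knockdown and 8.83, 9.04, 9.98 and 9.90 in nontargeting, and the 95% confidence interval of the difference ran from -0.51 to 0.52. Psmb10, the counterpart of Psmb7, averaged between 12.27 and 12.40 in the 4 groups, with an interval of -0.32 to 0.24. Of 13 probes for interferon response genes tested (9 genes), 2 were higher in knockdown than in nontargeting, both for B2m, and 0 lower. Of all tested probes, 10.3% were higher and 10.8% lower.

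In the ring of ATPases that unfolds substrates, all 8 probes lay below 0 in knockdown against nontargeting and 3 passed. The 2 probes of Psmc6 had the smallest adjusted p values of the 21 lower probes. The first read 12.46, 12.63, 12.60 and 12.62 in knockdown, 13.57 and 13.49 in nontargeting (replicates 3 and 4 without a value), 12.93, 13.05, 12.90 and 12.98 in not transduced and 12.69, 12.69, 12.84 and 12.65 in overexpression cultures. The second read 12.63, 12.80, 12.68 and 12.82 in knockdown, 13.68, 13.70, 13.88 and 13.95 in nontargeting, 12.98, 13.22, 12.91 and 13.08 in not transduced and 12.95, 13.13, 13.19 and 13.07 in overexpression cultures. Nontargeting was the highest group on both probes and knockdown the lowest, and neither overlapped the not transduced values. The differences were -0.95 ± 0.14 and -1.07 ± 0.12 SE (adjusted p = 0.000338 and 1.3e-05), and both passed under every alternative that could be run.

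The probes of Psmc4 disagreed. The first read 13.12, 13.11, 13.27 and 13.26 in knockdown, 13.88, 13.78, 13.81 and 13.91 in nontargeting, 13.01, 13.13, 13.32 and 13.39 in not transduced and 12.96, 13.09, 13.10 and 12.88 in overexpression cultures. The nontargeting values lay above all others, and the not transduced values overlapped those of knockdown and of overexpression. The difference was -0.66 ± 0.12 SE (adjusted p = 0.0015). The second probe averaged 12.73 ± 0.19 in nontargeting and 12.68 ± 0.06 in knockdown (SD, n = 4), with an interval of -0.39 to 0.28 for the difference. Psmc1, Psmc2, Psmc3 and Psmc5 differed by -0.13 to -0.39 and did not pass. Among the other base subunits the ubiquitin receptor Psmd4 fell by 0.58, with nontargeting values from a single array. The 4 probes of the scaffold subunits Psmd1 and Psmd2 lay between -0.01 and 0.19 and did not pass.

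In the lid, which removes the ubiquitin chain, 3 of 10 probes were lower and 3 higher. Psmd14, the metalloprotease that cuts the chain off, read 12.05, 12.17 and 11.88 in knockdown (replicate 3 without a value), 12.50, 12.60, 13.28 and 12.89 in nontargeting, 12.76, 12.67, 12.92 and 12.63 in not transduced and 12.77, 12.51, 12.52 and 12.64 in overexpression cultures. The knockdown values lay below all others. The difference from nontargeting was -0.79 ± 0.19 SE (adjusted p = 0.0102). It did not pass without knockdown replicate 4, without the knockdown array of replicates 3 and 4 (-0.71, adjusted p = 0.0700), or without the nontargeting array of replicates 3 and 4 (-0.53, adjusted p = 0.0778). Psmd12 fell by 0.64, with 13.11, 13.38, 13.83 and 13.74 in knockdown, and by 0.37 without the knockdown array of replicates 1 and 2 (adjusted p = 0.216). Psmd8 fell by 0.58. The probes of Psmd3, Psmd6, Psmd11 and Psmd13 lay between -0.15 and -0.37 and did not pass.

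Psmd7, the partner of Psmd14 in the lid, went the other way on all 3 of its probes. The first probe, at chr19:37452301-37452360, read 12.78, 12.70, 13.05 and 12.95 in knockdown, 11.93, 11.81, 11.98 and 11.73 in nontargeting, 12.93, 12.97, 12.80 and 12.79 in not transduced and 12.83, 12.90, 12.83 and 12.80 in overexpression cultures. Nontargeting alone was low, and all values of the other 3 groups lay between 12.70 and 13.05. The second and the third probe, printed above, averaged 12.40 ± 0.15 and 10.16 ± 0.21 in knockdown, 11.63 ± 0.19 and 9.64 ± 0.13 in nontargeting, 12.40 ± 0.11 and 10.14 ± 0.19 in not transduced and 12.42 ± 0.10 and 10.21 ± 0.14 in overexpression cultures (SD, n = 4). The 3 probes were higher in knockdown than in nontargeting by 1.01 ± 0.11, 0.77 ± 0.15 and 0.52 ± 0.18 SE (adjusted p = 1.9e-05, 0.0016 and 0.0448). Without normalization between arrays the differences were 0.53, 0.31 and 0.19 and none passed. The third call was also lost without any of the 4 arrays.

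**Figure D3:**
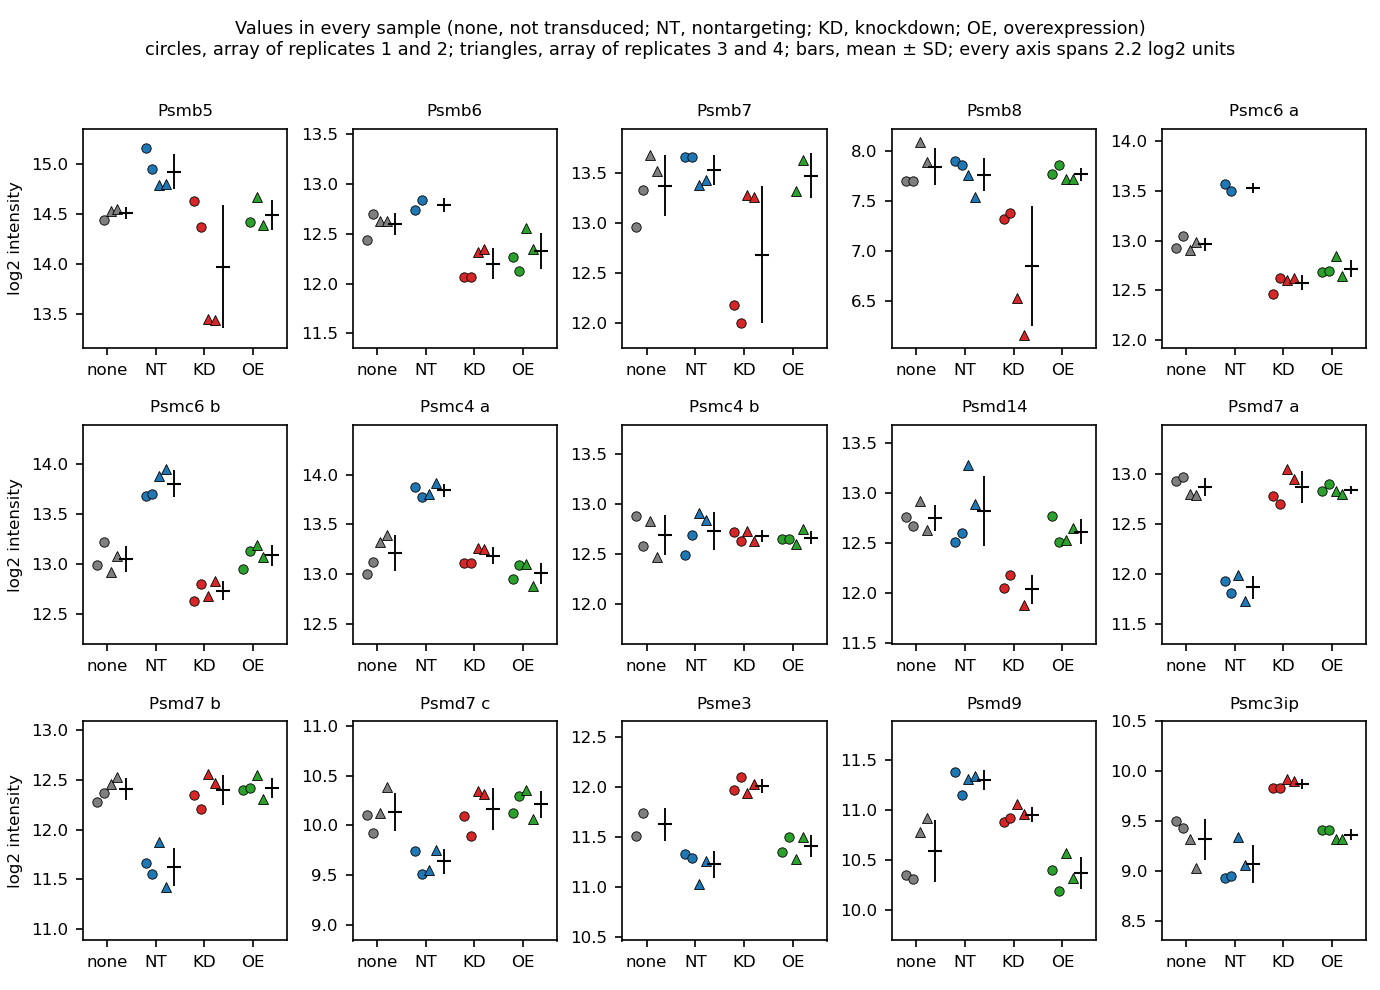
Log2 levels (vertical axis; every panel spans 2.2 units) of 15 probes in the 16 samples by group (horizontal axis), with the mean and SD of each group beside the points. Circles are the array of replicates 1 and 2 and triangles that of replicates 3 and 4. The nontargeting group stands alone for Psmc4 a (13.84) and the 3 Psmd7 probes, the knockdown group stands alone for Psmd14 (12.03) and Psmc3ip (9.87), and the knockdown arrays lie apart for Psmb5, Psmb7 and Psmb8.

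Among the activators, which open the barrel without the 19S cap, Psme3 (PA28 gamma, a nuclear activator) and Psme4 (PA200) moved in opposite directions. Psme3 read 11.97, 12.10, 11.94 and 12.03 in knockdown, 11.33, 11.29, 11.03 and 11.26 in nontargeting, 11.51 and 11.75 in not transduced (replicates 3 and 4 without a value) and 11.35, 11.50, 11.28 and 11.50 in overexpression cultures. All 4 knockdown values were above all others, and the difference from nontargeting was 0.78 ± 0.11 SE (adjusted p = 0.000218). Without normalization between arrays it was 0.34 and did not pass (adjusted p = 0.396). The 2 probes of Psme4 fell by 0.63 and 0.65, and both kept their call without each array. Psme1 and Psme2, the interferon-induced PA28 alpha and beta subunits, differed by 0.05 and 0.51 and did not pass. The nontargeting arrays of Psme2 stood apart, at 10.44 and 10.43 against 11.47 and 11.24.

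The assembly chaperones Psmg1 and Psmg2, which build the alpha ring, fell by 0.38 and 0.54, and Psmg4 differed by -0.30 and did not pass. Of the chaperones that build the 19S base, Psmd10 (gankyrin) fell by 0.69, a call lost without any of 5 single samples. Its nontargeting values came from a single array. Psmd5 and Psmd9 differed by -0.36 and -0.34 and did not pass. The inhibitor Psmf1 differed by -0.06. Psmc3ip, which is not a subunit and serves recombination between chromosomes, read 9.83, 9.83, 9.92 and 9.90 in knockdown and 8.92, 8.95, 9.33 and 9.06 in nontargeting, and was 0.80 ± 0.13 SE higher (adjusted p = 0.000539). Apart from those of Psmb1, Psmc4, Psmc6 and Psme4 (6 probes), no lower call was kept without every array that could be left out. Calls lost without 1 sample were those of Psma2, Psma3, Psmb6, Psmd10 and Psmd14 among the lower and of the third Psmd7 probe among the higher.

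**Figure D4:**
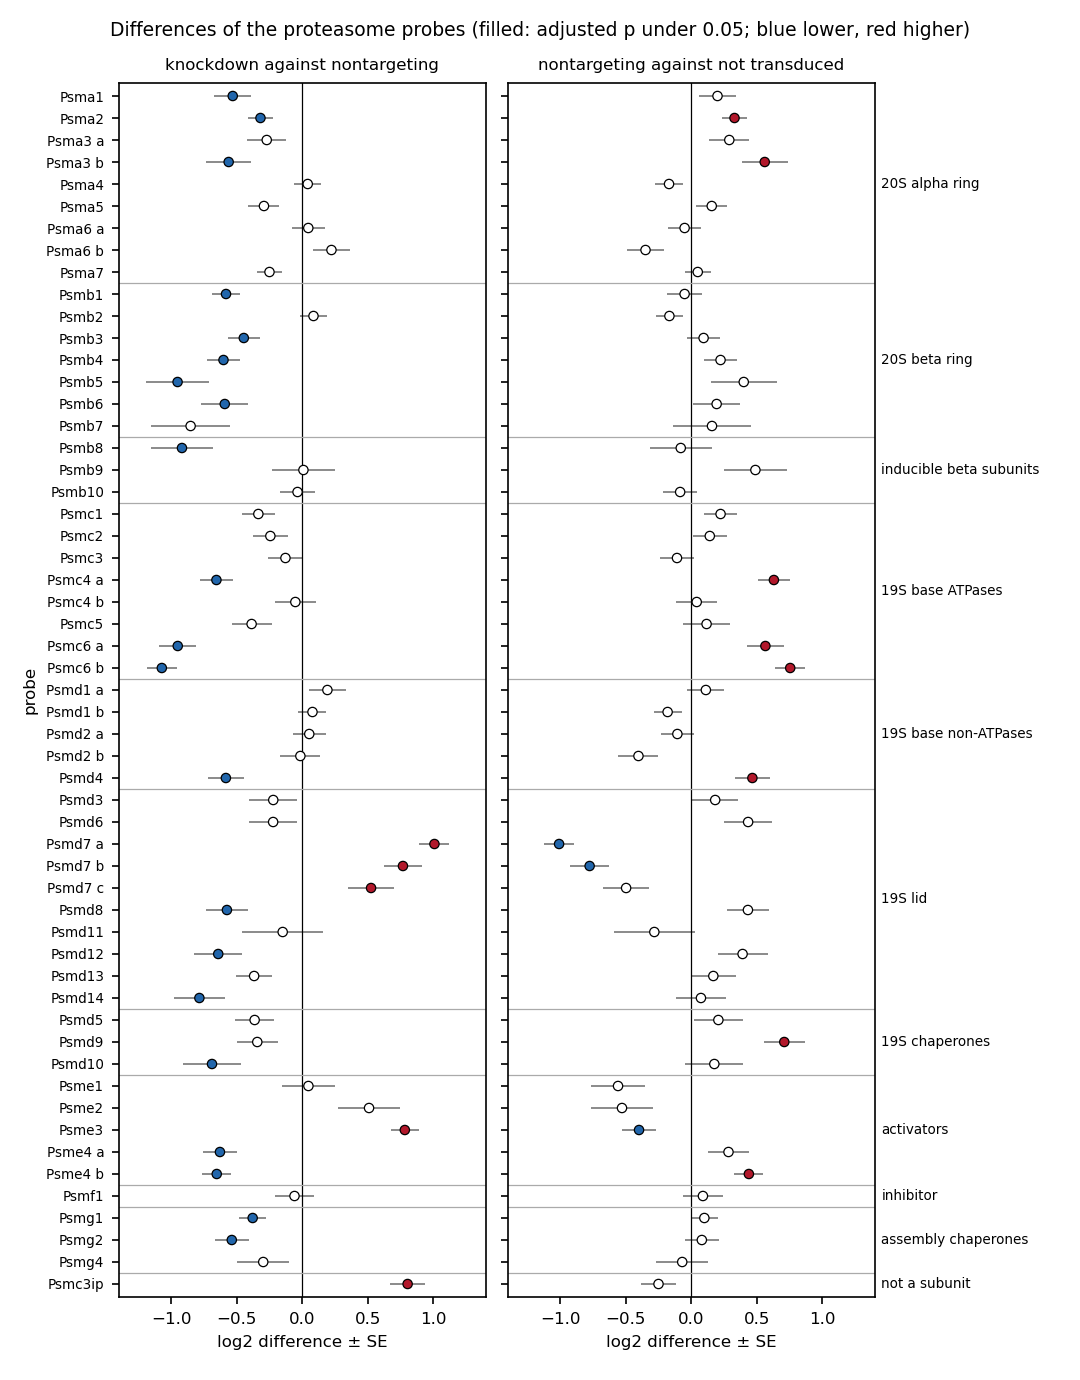
Log2 differences ± SE (horizontal axis) of the 55 tested probes (vertical axis, by role) in knockdown against nontargeting (left) and nontargeting against not transduced (right); filled points passed at adjusted p under 0.05, blue lower and red higher. In the left panel 21 points are blue and 5 red, and in the right panel 3 are blue and 8 red.

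Markers of cell types were read in the same comparison, in which 10.3% of all tested probes were higher and 10.8% lower. Against nontargeting, 9 of 11 probes for genes of dividing cells were higher in knockdown and 0 lower, and the mean of the 10 probes with all values was 9.37 to 9.74 in knockdown, 7.998 to 8.27 in nontargeting, 8.40 to 8.96 in not transduced and 8.66 to 8.91 in overexpression samples. Interneuron markers were higher in 4 of 5 probes, with means of 9.21 to 9.61 in knockdown, 8.32 to 8.63 in nontargeting, 9.73 to 10.43 in not transduced and 9.63 to 10.11 in overexpression. Markers of the oligodendrocyte lineage were higher in 4 of 11 probes (8.13 to 8.16 against 7.83 to 7.89), and those of astrocytes higher in 4 and lower in 2 of 14, with list means of 11.56 to 11.65 against 11.36 to 11.77. The 2 lower astrocyte probes were those of Gfap (-1.57 and -1.78). Of 9 neuron probes, that of Dcx was higher (0.73) and that of Nefl lower (-0.68), with list means of 12.50 to 12.60 against 12.48 to 12.81. These neuron counts were near the shares of all probes. Of 6 probes for excitatory neurons, 0 were higher and 0 lower. No tested microglial probe (6) or fibroblast and vascular probe (9) passed, and 7 of 13 microglial probes were well above background in no sample. The part of these cells in the proteasome differences was not tested, and in bulk cultures fewer cells of a type and less RNA per cell cannot be told apart.

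Nontargeting against not transduced sets a culture with a control lentivirus beside a culture without virus, on different slides. Here 8 of 55 proteasome probes were higher and 3 lower, and 11.2% of all tested probes were higher and 11.1% lower (22.3% in all), so the 14.5% that were higher stood near the share of all probes. Higher in nontargeting were Psmc6 (0.57 and 0.75 on its 2 probes), the base chaperone Psmd9 (0.71), the first Psmc4 probe (0.63), the second Psma3 probe (0.56), Psmd4 (0.47), 1 probe of Psme4 (0.44) and Psma2 (0.33). Psmd9 read 11.38, 11.15, 11.32 and 11.35 in nontargeting, 10.35, 10.31, 10.78 and 10.93 in not transduced, 10.88, 10.92, 11.06 and 10.96 in knockdown and 10.40, 10.19, 10.57 and 10.32 in overexpression cultures, and the nontargeting values lay above all others. Without the not transduced array of replicates 1 and 2 its call was lost. Without each array that could be left out, 3 of the 8 higher calls were kept (Psmc4 and both of Psmc6) and 2 of the 3 lower ones. The first Psmc6 probe and Psmd4 had nontargeting values on 1 array only, which could not be left out for them. The calls of Psma2, Psma3, Psmd4, Psmd9, Psme4 and Psme3 were lost without at least 1 array, and those of Psma3 and Psme3 also without any of 4 single samples. Lower in nontargeting were the first 2 probes of Psmd7 (-1.01 and -0.78, adjusted p = 2.6e-05 and 0.0016) and Psme3 (-0.40), and the third Psmd7 probe differed by -0.50 and did not pass. This comparison and knockdown against nontargeting share the nontargeting samples. Without normalization between arrays 0 proteasome probes were higher and 2 lower, and the median over the 54 went from 0.11 to -0.03.

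Knockdown against not transduced uses other control samples but crosses the slides. Of 55 probes 5 were lower (9.09%) and 1 higher, beside 5.36% and 4.77% of all probes (10.1% in all). The lower ones were Psmb8 (-0.999 ± 0.23 SE, adjusted p = 0.0137), Psmd14 (-0.71 ± 0.19, adjusted p = 0.0324), Psmb1 (-0.63 ± 0.13, adjusted p = 0.00988), Psmg2 (-0.46 ± 0.13, adjusted p = 0.0382) and the first Psmc6 probe (-0.39 ± 0.11, adjusted p = 0.0486), and the higher one was Psmc3ip (0.55 ± 0.13, adjusted p = 0.0156). For Psmb5 the difference was -0.55, for Psmb6 -0.40 and for Psmb7 -0.69, none of which passed. The 3 Psmd7 probes differed by 0.03 or less in size. The median over the 54 probes was -0.14, with 45 below 0. It was -0.87 without normalization between arrays, with 31 lower, and 0.04 with the deposited matrix, with 0 lower. The medians of all probes in the same 3 scalings were 0.0006, -0.28 and 0.19, so the median of the proteasome probes lay below that of all probes each time. That of bright probes without normalization was -0.74. No lower call was kept without every array, and 0 lower and 0 higher passed with each array as 1 value.

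Overexpression against not transduced, the comparison of PRR7 overexpression within a slide, gave no proteasome probe past the test in limma (0 of 55), and 0.00366% of all probes passed (1 of 27294). At an unadjusted p under 0.05 there were 1 proteasome probe, the first Psmc6 probe (-0.25), and 1042 of all probes. Differences ranged from -0.27 (Psmb6) to 0.38 (Psmd3), with a median of -0.06 over the 54 probes. In 3 probes the groups did not overlap with overexpression lower, and in 0 with it higher, patterns that 4.3% and 2.15% of all probes showed. Without normalization between arrays that median was -0.42 and with the deposited matrix -0.24, where the medians of all probes were -0.15 and -0.17, and 0 proteasome probes passed in either. The medians of all bright probes in the same 2 scalings were -0.40 and -0.21. The 95% confidence intervals ran from -0.74 at the lowest bound to 0.89 at the highest, and for 40 of 55 probes they lay within 0.5 of 0. For Psmb5 the interval was -0.58 to 0.54, for Psmd14 -0.54 to 0.27 and for the first Psmd7 probe -0.27 to 0.21. For the 2 Psmc6 probes the lower bounds were -0.49 and -0.21, above the differences of those probes in knockdown against nontargeting. Nontargeting was the highest group on both probes. In knockdown against not transduced, the difference of the first probe lay above its bound of -0.49. That of the second lay below its bound of -0.21.

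Overexpression against nontargeting, across slides, gave 9 lower and 3 higher proteasome probes of 55, beside 11.9% and 10.6% of all probes (22.5% in all). Lower were Psmd9 (-0.93 ± 0.16 SE, adjusted p = 0.000693), the first Psmc4 probe (-0.83), both Psmc6 probes (-0.81 and -0.72), Psmd4 (-0.66), both Psma3 probes (-0.48 and -0.55), 1 Psme4 probe (-0.50) and Psma2 (-0.38). Higher were the 3 Psmd7 probes (0.98, 0.79 and 0.57). Without each array that could be left out, 5 of the 9 lower calls and 2 of the 3 higher ones were kept. Among the kept lower calls, the first Psmc6 probe and Psmd4 had nontargeting values on 1 array only. That array could not be left out for them. The calls of Psma2, both Psma3 probes and Psme4 were lost without at least 1 array, and that of the third Psmd7 probe without any of the 4 arrays. In 18 probes every overexpression value lay below every nontargeting value, as in 20.1% of all probes. Psmb5 differed by -0.42, Psmb6 by -0.47 and Psmb7 by -0.06, and Psmb8 by 0.00, none of which passed. This comparison shares the nontargeting samples with 2 of those above. For the genes with several probes, no probe opposed one that passed in any of the 5 comparisons.

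Genes that work with the proteasome were read as a list of ubiquitin genes, activating enzymes, proteasome partners, shuttle proteins and regulators. In knockdown against nontargeting 4 of 57 probes (39 genes) were higher and 5 lower, with a median of -0.05. The lower ones with the smallest p were Adrm1, the ubiquitin receptor RPN13 of the cap (-0.83 ± 0.15 SE, adjusted p = 0.00089), and Faf1, a cofactor of the segregase VCP (-0.61, adjusted p = 0.00135, on 1 of 2 probes). The other 3 lower ones were Ddi2 (-0.51), Ubqln2 (-0.49) and the ubiquitin ligase Ube3a (-0.42). Higher were the 2 probes of Stat3 (1.30 ± 0.14 and 1.01 ± 0.28 SE), a transcription factor of cytokine signalling, and those of Nsfl1c (0.52), a VCP cofactor, and Ubqln4 (0.38). The second Stat3 probe, Ubqln2, Ube3a, Nsfl1c and Ubqln4 lie outside the 4 with the smallest p and were named after their values were seen. Adrm1 averaged 11.89 in not transduced, 12.25 in nontargeting, 11.42 in knockdown and 11.76 in overexpression cultures. Stat3 averaged 11.46, 9.95, 11.25 and 11.60 on its first probe in the same order, so nontargeting stood low. None of the 4 genes that encode ubiquitin passed, and 0 of 11 probes for activating enzymes did. In nontargeting against not transduced 4 were higher and 5 lower, in knockdown against not transduced 0 and 2, in overexpression against nontargeting 3 and 4, and in overexpression against not transduced 0 and 0. Of all probes, 10.3% were higher and 10.8% lower in the first of these comparisons, 11.2% and 11.1% in the second, 4.77% and 5.36% in the third, 10.6% and 11.9% in the fourth and 0.00366% and 0% in the fifth.

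Promoters were read for motifs because many subunits differed together. The 250 bases before the start were taken from RefSeq on GRCr8, where 42 of the 47 genes were matched by symbol. The core of the antioxidant response element, TGACNNNGC on either strand, which NFE2L1 and NFE2L2 bind, lay in 7 of 41 promoters of proteasome genes (17.1%) and in 10.1% of all 33469 promoters. It lay in 4 of 17 genes with a probe that was lower in knockdown against nontargeting (23.5%) and 3 of 24 others (12.5%). The CCAAT box, CCAAT on either strand, lay in 46.3% of proteasome promoters and 34.0% of all, and in 47.1% and 45.8% of the same 2 sets. These are counts of letters, not of bound sites. Among genes whose lower calls were kept without every array that could be left out, Psme4 held the antioxidant core. Psmb1, Psmc4 and Psmc6 did not. The core also lay in Psma3, Psmb5 and Psmb6, whose lower calls were lost without at least 1 array. It lay too in Psmb2, Psmd1 and Psmd9, which had no lower probe. The 2 promoters shown are therefore examples and do not stand for the lower and higher genes. Against nontargeting, Psmb5 was lower in knockdown and Psmd7 higher, and neither gene passed in knockdown against not transduced. Their promoters are shown with matches in capitals. These are the antioxidant core in Psmb5 (chr15:32047380-32047629, minus strand) and 2 CCAAT boxes in Psmd7 (chr19:52411317-52411566, minus strand, the first of them on the other strand).
Psmb5: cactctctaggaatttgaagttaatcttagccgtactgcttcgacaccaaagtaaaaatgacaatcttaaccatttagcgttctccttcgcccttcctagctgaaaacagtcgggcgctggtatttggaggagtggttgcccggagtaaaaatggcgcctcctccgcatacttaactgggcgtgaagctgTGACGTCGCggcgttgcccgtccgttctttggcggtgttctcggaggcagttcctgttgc
Psmd7: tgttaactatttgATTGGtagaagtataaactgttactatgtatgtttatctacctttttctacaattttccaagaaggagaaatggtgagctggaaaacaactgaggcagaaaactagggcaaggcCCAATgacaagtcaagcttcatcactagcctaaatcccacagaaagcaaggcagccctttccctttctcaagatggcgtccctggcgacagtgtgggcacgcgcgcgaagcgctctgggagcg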

How the data were processed

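RNA of 16 cultures was read on 8 two-colour Agilent rat arrays annotated on rn4, with 2 samples of 1 group per array. The deposited scanner files give intensity, the mean spot signal and median local background, from Agilent Feature Extraction 10.7.3.1 per the file headers. The deposited matrix holds log2 values, which matched log2 of median signal less median background, with a median of 0 per sample. Intensities were corrected with normexp (offset 50), loess-normalized within arrays and Aquantile-normalized between arrays in limma 3.58.1 (R 4.3.3, statmod 1.5.0), with flagged spots missing. Probes were kept when well above background in at least 4 samples, with at least 12 values and 2 per group. Group and dye were fitted with the array as a random block (correlation 0.562), and p values were adjusted by Benjamini-Hochberg over 27294 probes at 0.05. On simulated data for knockdown against nontargeting, 200 of 27294 probes were changed. Of changes of 0.6 log2 46% were recovered, and of changes of 1 log2 77%, with 10 false calls. Many more probes, 5748, were called in the real comparison, so these rates need not hold for it. The members and gene lists were chosen with earlier results of these data known. In each comparison the 10 largest rises and falls past the threshold are named, the catalytic subunits always, and the remaining members so that all are accounted for. Same-numbered knockdown and nontargeting samples deviated together (r = 0.131, 0.153, 0.265 and 0.192), but the number also sets the dye. With the dye removed too, r was 0.140, 0.0725, 0.148 and 0.0576, and replicates 1 and 4 matched another number best. The reported fit has no pair term, and the replicate block was an alternative. Promoters came from RefSeq (GRCr8). Alternatives were other background corrections, normalizations, filters, blocks and left-out samples or arrays.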

Additional observations from a re-analysis of the deposited data

Results flagged for a closer look

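Among 106 groups of 4 values for the named probes, 4 held a value far from the other 3. For independent values chance gives about 1 in 20 groups. Here samples shared arrays and probes shared samples, so that rate need not hold. Psma1 was at 14.18 in not transduced replicate 2, below the others at 14.39 to 14.42. The first Psmc6 probe was at 12.46 in knockdown replicate 1, below the others at 12.60 to 12.63. Psmd4 was at 13.92 in not transduced replicate 1, below the others at 14.06 to 14.07. Psmg1 was at 13.45 in not transduced replicate 3, above the others at 13.35 to 13.36.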

How the results depend on the processing

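No call among proteasome probes changed direction under any alternative run, and 0 passed in overexpression against not transduced under each. In knockdown against nontargeting (21 lower, 5 higher), the lower count was 11 with each array as 1 value, 12 at a minimum of 1.5-fold and 5 with the deposited matrix, and the higher count was 0 without normalization between arrays and 3 with 1 probe per gene. Leaving out samples or arrays gave 10 to 22 lower and 4 to 5 higher. In nontargeting against not transduced (8 higher, 3 lower), the higher count was 4 with each array as 1 value, 4 with only these groups, 3 at 1.5-fold, 3 with the matrix and 0 without normalization between arrays, and the lower count 7 without the array block. Leaving out gave 4 to 9 higher and 2 to 5 lower. In knockdown against not transduced (5 lower, 1 higher), the lower count was 3 with a normexp offset of 0, with the scanner software's processed signals, with probes well above background in all 16 samples and at 1.5-fold, 0 with each array as 1 value and with the matrix, 15 without the array block and 31 without normalization between arrays. The higher count was 0 with each array as 1 value, at 1.5-fold and without normalization between arrays, 2 with flagged spots kept and with the matrix, and 3 without the array block. Leaving out gave 0 to 5 lower and 0 to 2 higher. In overexpression against nontargeting (9 lower, 3 higher), the lower count was 5 at 1.5-fold, 4 without normalization between arrays, 15 with the matrix and 18 without the array block, and the higher count was 0 without normalization between arrays, 1 with 1 probe per gene, 5 with flagged spots kept and 7 without the array block. Leaving out gave 5 to 10 lower and 2 to 4 higher. The replicate block in place of the dye kept 54 of 55 calls and moved 3 counts by over 1.5 times, to 5 lower in nontargeting against not transduced, 2 higher in knockdown against not transduced and 5 higher in overexpression against nontargeting. The cause of these shifts was not tested. Fits without an array reused the array correlation of all samples. Precision was limited by the 8 arrays and by flagged spots, which left some groups with 2 values.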
